A study of Zea mays with 9 samples.

Results

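Endosperm of the maize inbred line sh1 was compared with endosperm of the inbred line B73, both taken 15 days after pollination, over every probe set of an Affymetrix maize array except the maker's controls. The comparison used 3 sh1 arrays and 3 B73 arrays of the 9 in the series, each hybridised with RNA of a separate biological sample, and 17621 of the 17734 probe sets. The other 3 arrays, of the inbred line ae wx, entered the estimate of the spread and are quoted beside some genes. All lines grew in one field, and the endosperm came from the middle of the ear. The labels name no allele for any line and do not say how sh1 was related to B73, so the locus it is named for cannot be told apart from any other difference between these lines.

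The starchy endosperm of a maize kernel imports sucrose, which sucrose synthase cleaves to fructose and UDP-glucose. The sugars then feed starch in plastids, wall polysaccharides and respiration, while zein storage proteins collect in protein bodies of the endoplasmic reticulum. The Shrunken1 gene (sh1) encodes the main sucrose synthase of developing endosperm, and kernels that lack it collapse on drying. The endosperm also holds an aleurone layer, a basal transfer layer that takes up nutrients, and the region around the embryo. The questions here were how the sucrose synthases and the starch and storage pathways compared in sh1 with B73, and what else differed.

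Signals were the deposited array intensities, used without further scaling, and all differences are sh1 minus B73 in log2(signal + 16), which understates the fold of weak genes. A probe set was tested if at least 3 of the 9 arrays reached 20% of that array's 2% trimmed mean, which 12414 did. Called means an adjusted p under 0.05 in limma's moderated test, after Benjamini-Hochberg adjustment over these 12414. A gene with several probe sets is given by its brightest one. The gene annotation put names that could be used on 1258 probe sets of 969 genes, of which 739 were tested, and 16168 probe sets carried no gene symbol. A signal counted as above background on an array where it passed the 95th percentile of that array's 23 control probe sets without a maize target, and p-values here rest on 3 arrays a line, which limits their precision.

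Expression differed broadly. Of the probe sets tested, 3780 (30.4%) were higher in sh1 and 3159 (25.4%) lower, so 54.5% of the 6939 called ones (55.9% of those tested) were higher. The arrays of the lines did not overlap in 7560 (60.9%), and in 5790 (46.6%) the 95% interval of the difference lay within 1.5-fold either way. At 2-fold or more, 1074 (8.65%) were higher and 691 (5.57%) lower. Among the named genes, 250 (33.8%) were higher and 173 (23.4%) lower, together 57.2%, with 76 (10.3%) and 48 (6.5%) at 2-fold or more, and the lines did not overlap in 455 (61.6%). The median difference of the named genes was 0.07 and its median size was 0.36. These figures are the background for the gene groups below. A group with shares near 33.8% higher and 23.4% lower is not set apart by its counts. The 95% interval lay within 1.5-fold in 346 named genes (46.8%).

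**Figure D1:**
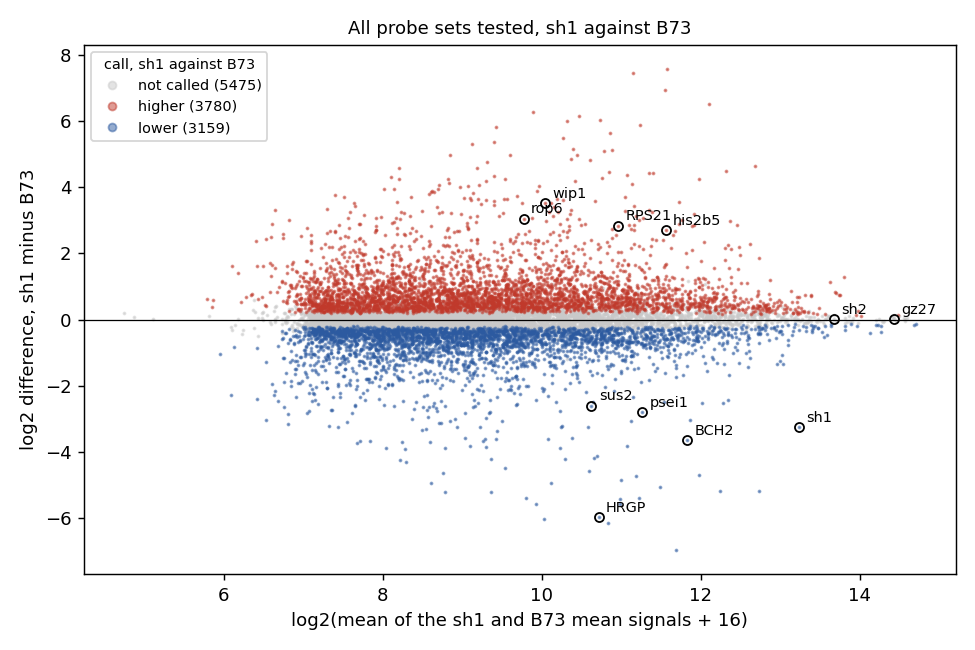
Each point is a tested probe set, with the log2 of the mean signal of sh1 and B73 plus 16 on the x axis and the log2 difference, sh1 minus B73, on the y axis. Red points (3780) were higher in sh1, blue points (3159) lower, and grey points (5475) were not called. The named circles show the sh1 gene at -3.24 and HRGP at -5.97 far below 0, while sh2 and gz27 lie on the line at very high signal.

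The level of all differences depended on the scaling. The spiked bacterial transcripts read lower in sh1: the 27 hybridisation control probe sets averaged -0.41, with all sh1 arrays below all B73 arrays in 26 of them, and the 36 poly-A control probe sets averaged -0.83, in the same order in 36 of 36. Control probe sets with no maize target averaged 0.03. The labels do not say that equal amounts were spiked, and the part of this gap in the results was not tested. Setting the spiked controls equal would raise every difference by 0.41 or 0.83. It would put 43 or 116 of the 173 lower named genes above 0, and 86.9% or 95.3% of the called probe sets would then be higher. Every direction below is therefore relative to the bulk of the probe sets, and a lower value nearer to 0 than -0.83 would change sign on the poly-A scale. The sh1 arrays also had a higher mean ratio of 3′ to 5′ signal on 3 of the 4 maize control transcripts, by 0.43 for actin, 0.58 for GAPDH and 0.14 for EF1a, and a lower one for cyclophilin (-0.39), and its part in the results was not tested. For actin the lines overlapped, with 0.54 in B73 replicate 3 and 0.49 in sh1 replicate 3. Each ratio used a single pair of probe sets. Others differed, such as an actin 5′ one at -0.88 (-0.18 at the one used) and a GAPDH 3′ one at 3.42 (1.18 at the one used).

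**Figure D2:**
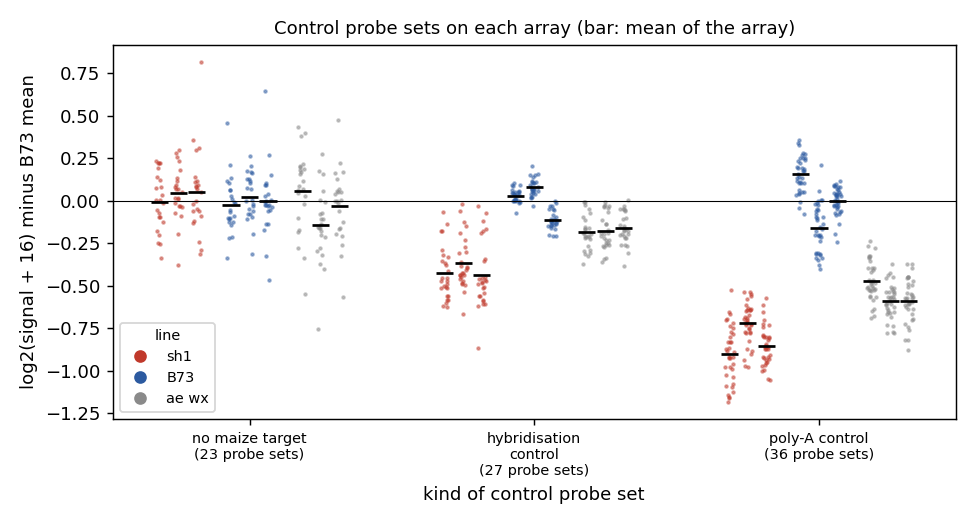
Control probe sets on each array, as log2(signal + 16) minus the B73 mean on the y axis, for 23 probe sets without a maize target, 27 hybridisation controls and 36 poly-A controls. Points are probe sets, black bars are the mean of an array, and colours mark the lines. The sh1 bars of both spiked kinds lie below the B73 bars, with mean differences of -0.41 and -0.83.

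Individual arrays also stood apart. Replicates 2 and 3 of sh1 were very alike, with 4 tested probe sets 2-fold or more apart, whereas sh1 replicate 1 differed that far from them in 93 and 117 probe sets. The B73 arrays differed from each other in 194 to 320 probe sets, and replicate 3 was the farthest from the other B73 arrays. For genes described below in which sh1 replicate 1 or B73 replicate 3 was 2-fold or more from the rest of its line, the difference is also given without that array. Without both, a setting added after the data were seen, 4165 probe sets were higher and 3532 lower.

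The sucrose synthases came first, since they check the label of the line. The sh1 gene gave signals of 1686, 1843 and 1965 in sh1 endosperm, against 18139, 16902 and 17372 in B73. The groups were far apart, with the 3 ae wx arrays (15910.0, 16149 and 15899.7) near B73. The difference was -3.24 ± 0.06 (SE, n = 3 each; limma adjusted p = 3.30e-10), or 9.48-fold lower. The other 2 probe sets for this gene were lower by more. One read 329.5, 349 and 381 in sh1 and 13891, 12881 and 12927 in B73, a 35.9-fold difference. The other was not above background on any sh1 array and was at least 20.1-fold lower (limma adjusted p = 1.56e-09).

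The sus2 gene, which encodes a further sucrose synthase, read 556, 363 and 369 in sh1, against 3351, 2736 and 2010.0 in B73. It was 6.08-fold lower in sh1, with no overlap between the lines (-2.60 ± 0.21, limma adjusted p = 4.47e-06). In ae wx it was lower still, at 182, 160.5 and 199 (sh1 against ae wx, limma adjusted p = 0.00165), so a low sus2 signal was not particular to sh1. The third gene, sus1, read 6642, 3999 and 4391 in sh1 and 3957, 3762 and 3037 in B73. Its 1.37-fold higher value (limma adjusted p = 0.0468) rested on sh1 replicate 1, without which the difference was 0.23 (adjusted p = 0.129). The call was also lost without B73 replicate 2 or 3, without sh1 replicate 3 and without any 1 of the ae wx arrays. Signals of different probe sets cannot be ranked against each other, so these values do not give the isoforms' shares.

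**Figure D3:**
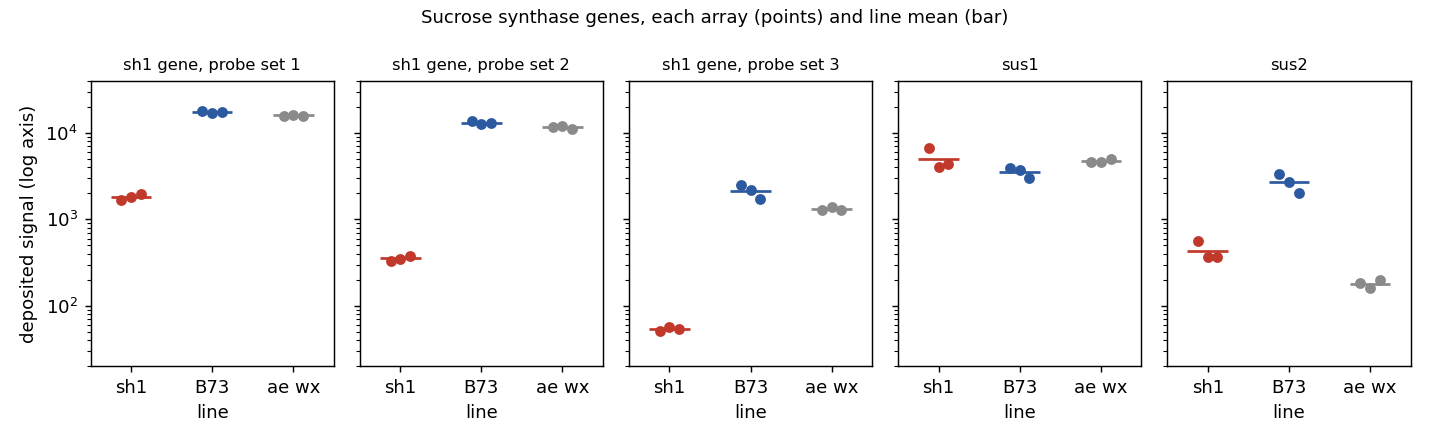
Deposited signal on a log axis for the 3 probe sets of the sh1 gene, sus1 and sus2 in sh1, B73 and ae wx. Points are arrays and bars are line means. The sh1 gene is low in sh1 alone, sus2 is low in both sh1 and ae wx, and the sus1 points of sh1 spread widely because replicate 1 reads 6642.

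Both fructokinase genes and a pair of sugar transporter genes were higher. Of 10 genes for invertases, hexose phosphorylation and sugar transport, 7 were tested, 4 were higher and 2 lower, with a median of 0.53, against 0.07 over all named genes. Fructokinases phosphorylate the fructose that sucrose synthase releases. The frk1 gene read 3695, 3791 and 3945 in sh1 and 2193, 2284 and 1840.2 in B73 (1.81-fold, limma adjusted p = 3.57e-05). The frk2 gene read 4592, 3952 and 3959.9 in sh1 and 2149, 2371 and 2547 in B73 (1.76-fold, limma adjusted p = 7.42e-05). For both, every sh1 array was above every B73 array. The sucrose transporter sut1 was 1.44-fold higher and the monosaccharide transporter MST1 1.76-fold higher (limma adjusted p = 5.81e-04 and 7.93e-05), with no overlap, and a weaker probe set of MST1 was higher by 3.03. The glucose phosphate isomerase phi1 was lower by 1.54-fold (adjusted p = 7.53e-04), but its -0.62 would lie above 0 on the poly-A scale. The cell wall invertase incw1 (-0.35) lost its call without B73 replicate 1 or 2 or sh1 replicate 1 or 3, leaving 1 lower gene.

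Starch synthesis showed no common direction. Of 16 genes, 13 were tested, 2 were higher and 4 lower, and the median was 0.02. On the poly-A scale, 3 of the 4 lower ones would lie above 0. The large change was in zpu1, a pullulanase-type debranching enzyme. It read 457, 543 and 514 in sh1 and 3137, 2868 and 1412 in B73, so all sh1 arrays were low and B73 replicate 3 was the lowest of its line (4.53-fold lower, limma adjusted p = 7.51e-05). Without that array the difference was -2.54 in place of -2.18. The granule-bound starch synthase gene wx1 read 9940.1, 10349 and 10706 in sh1, against 15122, 13907 and 13913 in B73. It was lower by 0.47 (adjusted p = 0.00357) and turned above 0 on the poly-A scale. The starch synthase gene sugary2 was higher at 8552, 6767 and 7341 in sh1, against 1225, 2973 and 4371 in B73. Its B73 arrays were the more scattered, and the 95% interval of the difference ran 0.73 to 2.42 (limma adjusted p = 0.00578). A second gene of starch synthase II type, gss1, was 1.33-fold higher (adjusted p = 0.00306).

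The calls at iso2 (-0.45) and ss1 (-0.21) were both lost without sh1 replicate 2 or 3, which left 2 lower genes, and ss1 also without sh1 replicate 1, B73 replicate 1 or ae wx replicate 1 or 3. The subunits of ADP-glucose pyrophosphorylase, the step that makes the substrate of starch synthases, were chosen for mention after their values were seen. The large subunit gene sh2 read 12906, 13135 and 13399 in sh1 and 12983, 12610.1 and 13381 in B73. The small subunit gene bt2 read 9626, 9347 and 9598 in sh1 and 9352, 8922 and 10316 in B73. The lines overlapped for both, with 95% intervals of -0.08 to 0.12 for sh2 and -0.13 to 0.13 for bt2, relative to the bulk of the probe sets. A weaker probe set of sh2 was at -0.39, so the interval holds for the brightest one only.

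Zein genes differed within subfamilies. All 7 were tested, of which 1 was higher and 3 lower, with a median of -0.07. The 22-kDa alpha zein genes az22z1 and az22z5 were lower. The az22z1 probe set read 5894, 4433 and 4193 in sh1, against 11749, 11508 and 11264 in B73 (2.4-fold lower, limma adjusted p = 7.03e-06). The az22z5 probe set read 5323, 4149 and 4008 in sh1 and 11763, 12158 and 10120.1 in B73 (2.53-fold lower, adjusted p = 8.64e-06). In both the sh1 arrays lay well below B73. A further one, az22z3, read 22923, 22022 and 22350.5 in sh1 and 21357, 21084 and 21983 in B73 (0.06, adjusted p = 0.137). These family members are close copies, and probe sets may share target RNA, so the single genes are uncertain.

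The gamma zein gz50 was 1.33-fold lower (-0.41 ± 0.04, limma adjusted p = 2.10e-05). It stayed just below 0 on the hybridisation scale and turned above 0 on the poly-A scale. The gamma zein gz27 had 22463, 21670.4 and 22121 in sh1 against 22117, 21997 and 21792 in B73, and the 95% interval of the difference was -0.06 to 0.08. This was its brightest probe set, and its 3 probe sets ran between -0.03 and 0.48. The delta zein dzs18 was higher by 0.13, a call lost without B73 replicate 3 or any 1 sh1 array, and other probe sets of this gene ran the other way, down to -0.86. The summed signal of the 7 zein genes was 110983, 106294 and 106336 in sh1 and 124822, 125204 and 122227 in B73. The brightest zein probe sets were close to the top of the signal range, where an array separates levels poorly.

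Of 14 regulators of zein genes and of endosperm identity, 13 were tested, 8 were lower and 1 higher, with a median of -0.46. On the poly-A scale 7 of the 8 would lie above 0, and on the hybridisation scale 1. The exception was mez1, a Polycomb group histone methyltransferase, at 311, 413 and 382 in sh1 and 1097, 1041 and 843 in B73 (2.63-fold lower, limma adjusted p = 3.93e-05). The P-box binding factor gene pbf1, which activates zein promoters, read 2513, 2163 and 2066 in sh1 and 3455, 3349.7 and 4131 in B73 (1.62-fold lower, adjusted p = 3.46e-04). The same order without overlap held for ohp1, a bZIP partner of Opaque2 (1.41-fold lower, adjusted p = 0.00124), for Nkd1 (1.59-fold) and Sal1 (1.6-fold), which act in aleurone formation, and for fie1, a Polycomb gene (1.49-fold). The o2 gene itself, chosen for mention after its values were seen, read 6925, 7626 and 7733 in sh1, against 7911, 6629.8 and 7638 in B73. Its 95% interval was -0.19 to 0.21, and it set sh1 apart from ae wx, where it read 2063, 2187 and 1902 (limma adjusted p = 2.20e-07).

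The chromatin list shares mez1, fie1 and other Polycomb genes with these regulators. It had 18 lower and 9 higher members among 44 tested of 45 on the array, with a median of -0.16. With any 1 array left out, the lower count ran from 13 to 21 and the higher from 8 to 11. On the poly-A scale, 16 of the 18 lower ones would turn above 0. The largest rises were in met5, a DNA methyltransferase gene, at 3.29-fold (its other probe sets reached down to 0.45), and in mbd105, a methyl-CpG-binding domain gene, at 2.73-fold. The mbd105 gene read 1431, 1551 and 1451 in sh1 and 540.3, 579 and 479 in B73 (limma adjusted p = 1.27e-06).

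**Figure D4:**
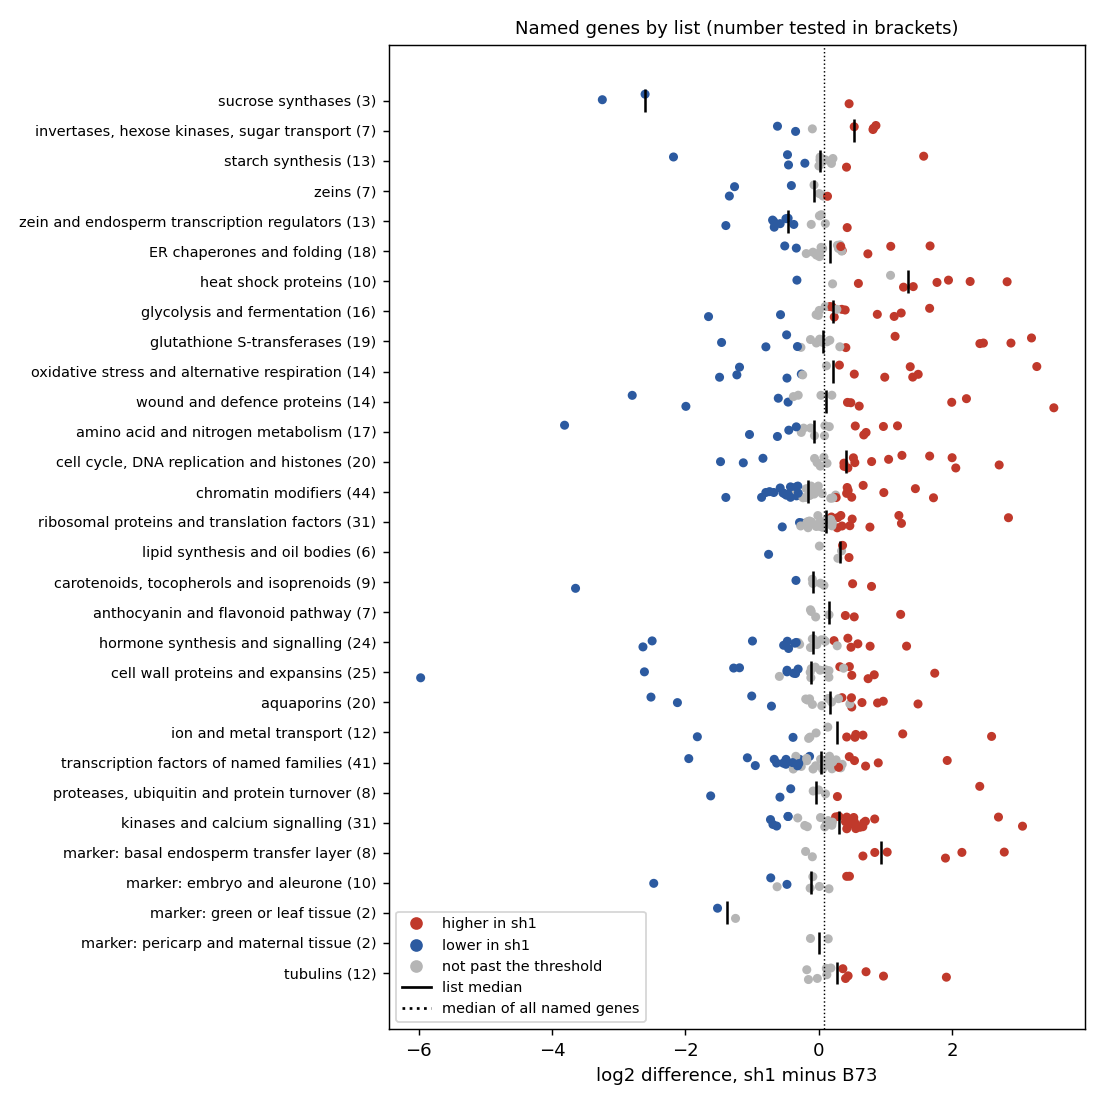
Log2 difference, sh1 minus B73, on the x axis for the tested genes of each list, with the number tested in brackets. Red points were higher in sh1, blue points lower, grey points not called. Solid bars are list medians and the dotted line is the median of all named genes at 0.07. Heat shock genes and transfer-layer markers lie mostly to the right, and the endosperm regulators mostly to the left, where they would cross 0 on the poly-A scale.

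Genes of carbon breakdown, heat and oxidative stress held several of the larger rises. Of 18 genes of glycolysis, fermentation and pyruvate metabolism, 16 were tested, 9 were higher and 2 lower, with a median of 0.22. With any 1 array left out, the higher count ran from 6 to 10. Alcohol dehydrogenase gene adh2 read 1072, 899 and 925 in sh1, against 281, 280.2 and 321 in B73 (3.16-fold higher, limma adjusted p = 6.46e-07). The pyruvate decarboxylase gene pdc3 read 3612, 4047 and 4174 in sh1 and 1699, 1485 and 1824 in B73 (2.35-fold, adjusted p = 4.09e-06). Neither passed the test against ae wx (limma adjusted p = 0.096 and 0.867). The cytosolic glyceraldehyde phosphate dehydrogenase gene GAPC1 was 1.84-fold higher (adjusted p = 4.29e-06). A lower member was pep4, of the phosphoenolpyruvate carboxylase family, at 129, 116 and 115 in sh1 and 382, 389 and 471 in B73 (3.14-fold lower, limma adjusted p = 5.01e-07).

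Heat shock genes were higher in 7 of 10 tested, of 11 on the array, and lower in 1, with a median of 1.34. For hsp22, hsp18f, hsp18a and hsp101, the size of the difference depended on sh1 replicate 1. The small heat shock gene hsp22 read 3103, 8259 and 8667 in sh1, against 672, 700.0 and 1269 in B73 (7.07-fold, limma adjusted p = 1.38e-04). The hsp18f gene read 2749, 11726 and 12028 in sh1 and 1458, 1337 and 1736 in B73 (4.82-fold, adjusted p = 0.00231). In both, sh1 replicates 2 and 3 were far above replicate 1, which was still above B73. Without sh1 replicate 1 the difference at hsp18f was 2.97 in place of 2.27, and at hsp18a it was 2.54 in place of 1.94. Without B73 replicate 3 as well, the difference at hsp22 was 3.59 in place of 2.82. The hsp101 gene, a chaperone that resolves aggregates, read 2056, 8623 and 8806 in sh1 and 1784, 883 and 2436 in B73, so sh1 replicate 1 fell inside the B73 range. Its call (1.77, limma adjusted p = 0.0165) was lost without B73 replicate 2 or sh1 replicate 2 or 3, and its value rose to 2.46 without sh1 replicate 1. The mitochondrial-type chaperonins CPN60I and CPN60II were 2.41-fold and 2.67-fold higher, with no overlap between the lines (limma adjusted p = 9.98e-05 and 1.22e-04).

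The endoplasmic reticulum list of chaperones, disulfide isomerases and related genes had 18 genes, all tested, of which 5 were higher and 2 lower, with a median of 0.17. The count of higher ones was 9 without sh1 replicate 1 and B73 replicate 3. The lower call of the disulfide isomerase gene pdi12 was lost without sh1 replicate 2 or 3. The binding protein gene bip2, which helps zeins fold, read 3755, 3857 and 4374 in sh1, against 1986, 2047 and 1632 in B73 (2.11-fold, limma adjusted p = 4.50e-05), and its copy bip1 was 1.28-fold higher (adjusted p = 0.0101). Another disulfide isomerase gene, pdi5, read 385, 309 and 295 in sh1 and was not above background on any B73 array, so it was at least 2.79-fold higher (adjusted p = 1.48e-06).

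**Figure D5:**
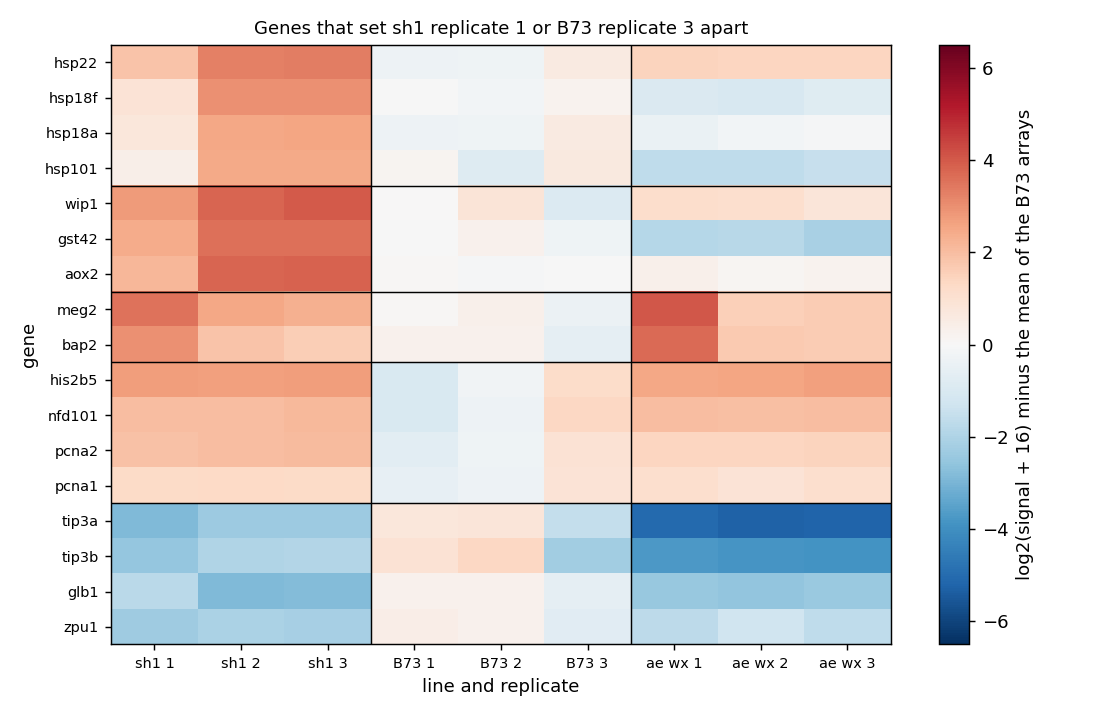
Colour gives log2(signal + 16) minus the B73 mean for genes (rows) on each array (columns), grouped as heat shock, stress, transfer layer, cell cycle, and embryo or storage genes. Within sh1, replicate 1 is paler than replicates 2 and 3 for the heat shock and stress genes and darker for meg2 and bap2. Within B73, replicate 3 lies toward the sh1 colours for the cell cycle genes and for tip3a and tip3b.

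Glutathione S-transferases, which conjugate reactive compounds to glutathione, had 6 higher and 4 lower members among 19 tested of 31 on the array, with a median of 0.06. These shares were near the 33.8% higher and 23.4% lower over all named genes. At 2-fold or more, 5 were higher and 1 lower, and 3 of the 4 lower members would lie above 0 on the poly-A scale. The gst42 gene read 1289.6, 2906 and 2885 in sh1, against 227, 282 and 186 in B73, with 52.6, 53.6 and 41.5 in ae wx (9.11-fold above B73, limma adjusted p = 9.81e-06). Without sh1 replicate 1, the lowest of its line, the difference was 3.57 in place of 3.19. The gst31 gene read 5106, 4596 and 4286 in sh1 and 738, 957 and 898 in B73 (5.33-fold, adjusted p = 4.73e-07). The gst5 gene was 5.53-fold higher than in B73 but did not pass the test against ae wx (limma adjusted p = 1.20e-05 and 0.541). In the other direction, gst6 read 254, 224 and 219 in sh1 and 639.7, 688 and 667 in B73 (2.75-fold lower, adjusted p = 1.79e-06).

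Oxidative stress genes showed 7 higher and 5 lower among 14 tested of 17, with a median of 0.21. The alternative oxidase gene aox2, whose product passes electrons from ubiquinone to oxygen, read 215, 674 and 720.3 in sh1 and was not above background in B73. It was at least 3.98-fold higher (limma adjusted p = 4.30e-05), and the fitted difference was 3.81 without sh1 replicate 1 and 3.27 with it. The superoxide dismutase gene sod2 was 2.59-fold higher (adjusted p = 2.38e-05), with a further probe set at 0.26. The 3 catalase genes did not move together. The cat2 gene read 524, 255 and 259 in sh1, against 83.4, 102 and 139 in B73, where 1 of 3 arrays was above background (2.81-fold, adjusted p = 7.56e-04). The CAT3 gene was lower, at 142, 124 and 117 in sh1 and 355, 388 and 236 in B73 (2.34-fold lower, adjusted p = 1.53e-04). The cat1 gene was 1.39-fold lower, and its -0.48 would lie above 0 on the poly-A scale.

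Defence-related genes had 6 higher and 4 lower members among 14 tested of 20, with a median of 0.11. The wound-induced proteinase inhibitor gene wip1 read 1084, 2200.4 and 2478 in sh1 and 145, 270.2 and 70.9 in B73, where 2 of 3 arrays were above background (11.5-fold higher, limma adjusted p = 6.37e-05). Without sh1 replicate 1 the difference was 3.89 in place of 3.52. The allene oxide synthase gene aos1, an early step of jasmonate synthesis, read 753, 678 and 771 in sh1, against 141, 133 and 164 in B73 (4.64-fold, adjusted p = 9.82e-08). The next step, aoc1, was 1.52-fold lower (adjusted p = 3.71e-04) and would lie above 0 on the poly-A scale. The benzoxazinoid gene bx6 was 3.98-fold higher (adjusted p = 5.15e-06). The cystatin genes psei1 and cpi2, whose products inhibit cysteine proteases, were lower. The psei1 gene read 562, 631 and 593 in sh1, against 3472, 5160.3 and 4219.8 in B73, with 6682, 6668 and 6797 in ae wx (6.95-fold below B73, limma adjusted p = 8.35e-08). The cpi2 gene was lower by 3.98-fold (adjusted p = 9.74e-07). Of 8 tested genes for proteases and protein turnover, 2 were higher and 3 lower (median -0.04), and the higher count was 1 without sh1 replicate 2 or 3. Among them see1, a senescence-enhanced cysteine protease gene, read 1639, 1626 and 1675 in sh1 and 284, 295 and 311 in B73 (5.32-fold higher, limma adjusted p = 2.36e-08).

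Cell cycle, replication and histone genes were higher in 12 and lower in 3 of 20 tested, of 25, with a median of 0.41. The histone H2B gene his2b5 read 5088, 4943 and 5154 in sh1, against 378, 648 and 1793 in B73 (6.51-fold, limma adjusted p = 4.37e-04). The replication clamp gene pcna2 read 2180.1, 2302 and 2415 in sh1 and 344, 465 and 1105 in B73 (3.99-fold, adjusted p = 5.88e-04). The sh1 arrays were tight and B73 replicate 3 was the highest of its line in both, and without it the difference at his2b5 was 3.31 in place of 2.70 and that at pcna2 was 2.47. The count of higher genes was 12 with each array left out in turn and without sh1 replicate 1 and B73 replicate 3. Across all settings without the spiked controls, it ran from 8 to 12. None of his2b5, pcna2 and pcna1 passed the test against ae wx (limma adjusted p = 0.838, 0.197 and 0.629). The D-type cyclin gene cycD2 ran the other way, at 553, 369 and 349 in sh1 and 1166, 1004 and 1402 in B73 (2.78-fold lower, adjusted p = 6.72e-05). The tubulin genes, a group set apart from the wall list with the values in view, had 6 of 12 higher and 0 lower by limma (0 lower also at an unadjusted p under 0.05, and up to 2 under other settings), with a median of 0.27. These counts take the brightest probe set of each gene. That of the tubulin gene tub6 was higher at 0.97, but its 4 probe sets ran down to -1.91. The beta tubulin gene TUBB2 read 469, 401 and 414 in sh1, against 83, 101.4 and 124 in B73, where 1 of 3 arrays was above background (3.76-fold, adjusted p = 1.53e-06).

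Translation genes were higher in 11 and lower in 3 of 31, with a median of 0.11. Over all named genes, 33.8% were higher and 23.4% lower, so the share of higher ones was near the background. The lower count was 7 without B73 replicate 1 and 6 without B73 replicate 3. The ribosomal protein gene RPS21 read 3502, 3465 and 3382 in sh1, against 273, 569 and 650.2 in B73, with 961, 961 and 857 in ae wx (7.17-fold above B73, limma adjusted p = 1.05e-05). The RPS10 gene was 2.36-fold higher (adjusted p = 8.50e-05). Kinase and calcium signalling genes were higher in 17 and lower in 5 of 31 tested, of 36, with a median of 0.30, and all 5 lower ones would lie above 0 on the poly-A scale. The larger rises were in small GTPases of the Rop family, which act in cell polarity. The rop6 gene read 1425, 1621 and 1601 in sh1, against 146, 206 and 169 in B73 (8.3-fold, limma adjusted p = 3.96e-08). The rop3 gene was 6.47-fold higher (adjusted p = 2.46e-07), with 2 of 3 B73 arrays above background, while rop2 was 1.65-fold lower (adjusted p = 2.79e-04) and would turn above 0 on the poly-A scale.

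Several single genes differed more than the groups they belong to. Of 25 tested wall genes, of 32, 6 were higher and 9 lower, with a median of -0.11. The hydroxyproline-rich glycoprotein gene HRGP, which encodes a structural wall protein, read 41.3, 36.7 and 29.8 in sh1 and 3996, 3568 and 2341 in B73. No sh1 array was above background, so it was at least 30.5-fold lower (limma adjusted p = 8.46e-09). It was low in ae wx too, at 75.6, 54.4 and 51.1. The expansin gene expB3, whose family loosens walls, read 72.2, 83.4 and 136 in sh1, with 1 of 3 arrays above background, and 615, 767 and 603 in B73 (6.12-fold lower, adjusted p = 3.09e-06). The expansin expA4 was 3.33-fold higher, though its probe sets ran between 0.27 and 2.22.

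The carotenoid list had 2 higher and 2 lower genes among 9 tested of 12 (median -0.09), and the higher count was 1 without B73 replicate 2 or 3 or sh1 replicate 1 or 3. Its large change was BCH2, a beta-carotene hydroxylase gene. BCH2 read 513, 526 and 529.8 in sh1, against 7082, 6886 and 6259 in B73, with 8917, 8839 and 8436 in ae wx. It was 12.5-fold lower than in B73 (-3.65 ± 0.07, SE, n = 3 each; limma adjusted p = 4.13e-10) and set sh1 apart from both other lines (against ae wx, adjusted p = 3.20e-10). Flavonoid genes were higher in 3 of 7 tested and lower in 0 by limma (0 lower also at an unadjusted p under 0.05, and up to 1 under other settings), with a median of 0.15. Among them f3h, a flavanone hydroxylase gene, read 248, 178 and 138 in sh1 and was not above background in B73 (at least 1.62-fold higher, limma adjusted p = 2.38e-04), well below its 1134, 1131 and 1127 in ae wx. Of 6 lipid and oil body genes, 2 were higher and 1 lower (median 0.31), but the lower call at plt2 (-0.75) was lost without B73 replicate 2 or 3, ae wx replicate 1 or 2 or sh1 replicate 2 or 3, and the higher count was 1 without B73 replicate 2 or sh1 replicate 1.

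Among 24 tested hormone genes of 34, 6 were higher and 8 lower, with a median of -0.09. With any 1 array left out, the higher count ran from 4 to 5 and the lower from 6 to 9. The YUCCA-type gene yuc, of auxin synthesis, read 766, 931 and 928 in sh1, against 5614, 5334 and 4171 in B73 (5.65-fold lower, limma adjusted p = 1.93e-06). It did not pass the test against ae wx (adjusted p = 0.245). The ACC oxidase gene acco20, of the last step to ethylene, was not above background on any sh1 array and read 623, 674 and 528 in B73, so it was at least 5.85-fold lower (limma adjusted p = 2.65e-07). Amino acid and nitrogen genes had 5 higher and 5 lower of 17 tested, of 21 (median -0.07). The lower count was 8 without B73 replicate 3, 3 without sh1 replicate 2 or 3, and 9 without sh1 replicate 1 and B73 replicate 3. The homocysteine methyltransferase gene hmt4 read 69.7, 42.3 and 48.1 in sh1, not above background, and 1281, 1208 and 541 in B73 (at least 9.04-fold lower, adjusted p = 2.98e-06). Without B73 replicate 3 the fitted difference was -4.20 in place of -3.81. The lysine-pathway gene akh2 was 2.27-fold higher (adjusted p = 1.98e-05).

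Water channel genes were higher in 7 and lower in 4 of 20 tested, of 28, with a median of 0.17, beside 33.8% higher and 23.4% lower over all named genes. Across the settings without the spiked controls, the higher count ran from 6 to 10 and the lower from 1 to 6. The tonoplast channel tip3a, known from maturing seed tissue, read 953, 1350.4 and 1347 in sh1, against 11622, 12089 and 2378 in B73. B73 replicate 3 was far below the rest of its line but above sh1, and without it the difference was -3.29 in place of -2.52 (limma adjusted p = 0.00227 with all arrays). The plasma membrane channel PIP1-1 was 2.8-fold higher, at 699, 922 and 934 in sh1 and 259.9, 312 and 304 in B73 (adjusted p = 7.36e-06). Ion and metal transport genes were higher in 6 and lower in 2 of 12 tested, of 20 (median 0.28). The higher count was 4 without sh1 replicate 1, and 2 with the stricter filter on weak signals at 50% of the trimmed mean. The multidrug-resistance-type transporter MRP2 was 3.53-fold lower (limma adjusted p = 1.78e-07), and its further probe set was at -0.74. Transcription factors of named families were lower in 13 and higher in 6 of 41 tested, of 65 (median 0.03), the higher count was 10 without sh1 replicate 1 and B73 replicate 3, and 10 of the 13 would lie above 0 on the poly-A scale. The MADS-box gene MADS11 read 1945, 1969.6 and 2045 in sh1, against 476, 448 and 627 in B73 (3.8-fold higher, adjusted p = 1.58e-06). The knotted1-like homeobox gene lg3 was 3.86-fold lower (adjusted p = 7.90e-06), with 2 of 3 sh1 arrays above background.

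Among marker genes of the tissues within and around the endosperm, those of the basal transfer layer were mostly higher. In RNA of whole tissue, fewer cells of a type and less RNA per cell cannot be told apart. Basal transfer layer markers were higher in 6 and lower in 0 of 8 tested by limma, of 13, with a median of 0.93 (0 lower also at an unadjusted p under 0.05, and up to 1 under other settings). Their summed signal was 7922, 6432 and 6210 in sh1 and 3320, 3485 and 3799 in B73. Without sh1 replicate 1 and B73 replicate 3, the count was 4. The BETL1 gene read 1297, 993 and 892 in sh1 and 503, 460.2 and 562 in B73 (2.03-fold, limma adjusted p = 3.93e-04). The meg2 gene read 1475, 704 and 611 in sh1, against 117, 144 and 81.6 in B73, with 2085, 362 and 383 in ae wx (6.87-fold above B73, adjusted p = 0.00306). Its spread within sh1 and within ae wx was wide, with replicate 1 high in each, and without sh1 replicate 1 the difference from B73 was 2.40 in place of 2.78 (limma adjusted p = 0.014).

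Embryo and aleurone markers were higher in 2 and lower in 3 of 10 tested, of 12 (median -0.11), and the higher count was 0 without B73 replicate 3 and 1 without any 1 sh1 array. The embryo globulin gene glb1 read 758, 341 and 356 in sh1, against 3183, 3111 and 1745 in B73 (5.56-fold lower, limma adjusted p = 9.63e-05). The difference was -2.84 without sh1 replicate 1 and -3.12 without B73 replicate 3 as well, in place of -2.47. The summed signal of this list was 36459, 32495 and 34102 in sh1 and 40638, 42522 and 35174 in B73. Green tissue markers summed to 639, 704 and 658 in sh1 and 1209, 1357.96 and 802 in B73, with 1 of 2 tested genes lower, and Cab-m7, psbs1, psan1, pep1 and mdh6 were not above background in either line. Pericarp markers summed to 792, 808 and 748 in sh1 and 781, 764 and 779 in B73. These sums include 4 of the 6 markers that were too weak to test, so they do not show equal amounts of this tissue. Of the 2 tested, 0 were called. The marker of the region around the embryo, esr2, was not above background on any array of the 2 lines. The part of these tissues in the differences above was not tested.

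Signals present in one line and missing from the other were found as well, in a class described after the data were seen. This class was counted over all 17621 probe sets other than controls, tested or not. At 4-fold or more, 68 of these were above background on every sh1 array and no B73 array, and 39 the reverse. Probe sets with a usable gene name, 1258 of the 17621, made up 4 of the 68 and 7 of the 39. The largest differences were at probe sets without a gene name. Named members of the 39 included probe sets of HRGP, hmt4, acco20 and the sh1 gene, described above. Probe set Zm.14798.1.S1_at read 6193, 5946 and 6093 in sh1, against 14.5, 15.6 and 17.24 in B73 (at least 49.6-fold higher, limma adjusted p = 1.68e-10). Probe set Zm.6779.2.S1_a_at read 29.2, 41.1 and 35.1 in sh1, against 5802, 8876 and 4948 in B73, with 8742, 7734 and 9130 in ae wx (at least 59.8-fold lower than B73, adjusted p = 2.59e-09). Among the named genes, CAF1 read 493, 546 and 500.4 in sh1 and was not above background in B73 (at least 4.3-fold higher, adjusted p = 7.95e-08). A probe set that reads an allele poorly and a transcript that is scarce give the same low signal, and which of these held was not tested.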

How the data were processed

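RNA of 9 endosperm samples (3 each of sh1, B73 and ae wx) was hybridised to 1 array each. Per the submitters' processing notes, GCOS 1.4 was used. The deposited values are linear signal intensities summarised per probe set by the authors. Their 2% trimmed means ran from 623.4 to 684, a spread of 9.72%, so no further scaling was applied. Analysis used R 4.3.3 with limma 3.58.1 (1 mean per line, all 9 arrays, eBayes with trend, two-sided) and Python 3.11.15. The fit was tested on simulated data with independent noise and few changed probe sets. That run does not show how reliable the calls here are. Benjamini-Hochberg adjustment ran over 12414 probe sets, 5207 having been left out as weak. No spot, slide or scan data were used. Gene names came from the platform annotation, with symbols updated through RefSeq genes (assembly Zm-B73-REFERENCE-NAM-5.0), and no sequences were used.

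The genes named were all sucrose synthases, the 15 highest and 15 lowest called genes without overlap and above background (with those not above background beside them), up to 6 called members of each list, the 6 brightest genes with a tight interval and the 2 highest and 2 lowest probe sets without a name. The text takes its examples from these, apart from the genes marked as chosen after their values were seen and the tissue markers listed as not above background.

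The gene groups and lists were chosen with earlier results of these data known. With values in view, 78 list entries were removed by gene function or name (59 of them tested, 16 higher and 12 lower), 12 tubulins were moved to a list of their own and 13 spellings were added. A further 5 genes with ambiguous names were not named. The background level, the 4-fold class of signals in 1 line, both spiked scalings and the setting without sh1 replicate 1 and B73 replicate 3 were also chosen after seeing the data. The labels call the replicates biological. Replicate numbers did not pair the lines: deviations of same-numbered sh1 and B73 arrays correlated at -0.086, 0.136 and -0.231. The alternatives changed the scaling, the pseudocount, the filter, the arrays used, the weights, the block and the variance model.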

Additional observations from a re-analysis of the deposited data

How the results depend on the processing

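The genes picked by the naming rule above, sh1 apart, were followed through the alternatives. Of the 169 with a value, 165 were called, a share fixed largely by the rule, which mostly takes called genes. Of these, 142 were called under all 22 alternatives that kept the spiked controls out. None of the 165 changed sign in them, and the other named genes were not followed in this way. The sh1 gene stayed between -3.30 and -3.19 with any array left out. Without 1 array, or without sh1 replicate 1 and B73 replicate 3 together, 3160 to 4191 probe sets were higher and 2640 to 3613 lower, 959 to 1237 and 641 to 813 at 2-fold or more, with 219 to 276 named genes higher and 139 to 212 lower, and 5085 to 6190 probe sets had the interval within 1.5-fold. Median centring turned the majority, with 3217 higher and 3780 lower (46% of the called ones higher), and quantile normalization gave 3224 and 3798. The replicate block gave 3554 higher and 2922 lower, and averaging sh1 replicates 2 and 3 as 1 sample gave 3177 and 2676. The median SD within a line was 0.18 in B73, 0.08 in sh1 and 0.07 in ae wx, so B73 was the most scattered line. Weights that gave each line its own spread left 3273 higher and 2607 lower, with 214 and 142 named genes. The sh1 and B73 arrays alone gave 3193 and 2684, with 224 and 148 named genes. Scaled to the hybridisation controls, 7762 were higher and 1167 lower (2197 and 351 at 2-fold or more), 475 named genes were higher and 65 lower, and 3690 probe sets had the interval within 1.5-fold. Scaled to the poly-A controls, these were 10449 and 510 (4846 and 207), 625 and 37, and 1037, since every difference rises by 0.41 or 0.83. The interval count was 9996 with no filter and 3648 with a filter at 50%, as more or fewer probe sets were tested. Of 134 genes with several tested probe sets, 18 had probe sets over 1 apart in log2, and 5 called genes (CDPK, dzs18, piip1, tif5A and tub6) had a mean of the opposite sign. The planned search for promoter motifs was not run. The sample number and the signal near background limit the weak genes.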

Other observations

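Among genes picked for a bright signal and an interval within 1.5-fold were, besides zeins, hag and the glycine-rich protein gene grp1, so their small differences are part of how they were picked. The hag probe set read 17484, 18955 and 19018 in sh1 and 20528, 21659 and 20904 in B73 (-0.19, limma adjusted p = 0.00383). The grp1 probe set read 16865, 16345 and 16847 in sh1, against 15238, 14618 and 15483 in B73 (0.14, adjusted p = 0.0116), a call lost under quantile normalization and median centring.

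Further single genes outside the groups above differed without overlap. The nitrilase gene nitrilase2 read 133, 115 and 100.5 in sh1, against 744, 626 and 736 in B73, with 129.8, 124 and 114 in ae wx (5.44-fold below B73, limma adjusted p = 7.80e-08). The isocitrate lyase gene ICL, of the glyoxylate cycle, was not above background on any sh1 array and read 450.0, 366 and 327 in B73 (at least 3.71-fold lower, adjusted p = 3.14e-07). The gene lim1 read 3855, 4115 and 4047 in sh1, against 601, 1176 and 1011 in B73, with 475, 528 and 615 in ae wx (4.41-fold above B73, adjusted p = 2.05e-05).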
